A study of Mus musculus with 3 samples.

Results

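The Anxa1 Itgax cells were CD8 T cells taken from mouse tumours of MC38, a line of colon carcinoma cells, and were chosen by the genes in which they held unique molecular identifiers (UMIs, each 1 captured transcript). A barcode entered with at least 1 UMI of Anxa1 and at least 1 UMI of a partner gene, Itgax, Esm1 or Tnp2. It also had to hold a CD3 transcript and a CD8 transcript (Cd8a or Cd8b1) and none of Cd4, Foxp3 or Tcf7. These limits found 636 cells among 20380 CD8 cells, 25920 barcodes that passed the limits on quality and 27340 barcodes deposited. There were 253 Anxa1 Itgax cells in the library labelled PBS, 88 in mix and 295 in homo. All libraries came from CD3-sorted cells of tumours taken on day 15, after treatment for 5 days, and each group was a single library. The labels give no age, sex or genotype of the mice, no number of animals pooled and no account of what mix or homo stands for, and the series title speaks of interleukin-2 aimed at the inhibitory receptor LAG3. With 1 library per group no comparison has a replicate check, so no test was made, and every interval is a 95% interval that covers counting error only.

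Killing by CD8 T cells rests on granzymes and perforin released onto a target. Under lasting antigen in a tumour, such cells take on inhibitory receptors such as PD-1 (Pdcd1) and LAG3 and the nuclear factor TOX, a state called exhaustion, while cells that keep the factor TCF-1 (Tcf7) serve as its renewing pool. Effector and memory cells that travel in blood express KLF2, which drives the egress receptor S1PR1, and chemokine receptors such as CCR2 and CXCR3. Annexin A1, encoded by Anxa1, is a phospholipid-binding protein known for dampening inflammation, and Itgax encodes CD11c, an integrin chain that pairs with the chain encoded by Itgb2 and is best known from dendritic cells but is also found on activated CD8 T cells. Esm1 encodes endocan, a secreted proteoglycan of endothelium, and Tnp2 encodes a transition protein that packs the DNA of sperm.

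Itgax and Tnp2 were the partner genes that brought in most cells, and the 250 bases before their start sites are printed to show what the annotated promoters of an integrin gene and of a testis gene look like side by side. They come from RefSeq on build GRCm38.p6, in which all 4 gate genes had an entry, whereas the submitters' notes name mm39. Itgax lies on the plus strand (chr7:128129300-128129549) and Tnp2 on the minus strand (chr16:10788656-10788905), and capitals mark the match found.
Itgax: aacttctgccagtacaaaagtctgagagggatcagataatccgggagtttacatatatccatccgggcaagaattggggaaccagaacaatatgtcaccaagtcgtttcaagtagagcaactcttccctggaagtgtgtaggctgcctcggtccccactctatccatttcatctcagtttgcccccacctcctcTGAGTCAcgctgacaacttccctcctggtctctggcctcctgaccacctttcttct
Tnp2: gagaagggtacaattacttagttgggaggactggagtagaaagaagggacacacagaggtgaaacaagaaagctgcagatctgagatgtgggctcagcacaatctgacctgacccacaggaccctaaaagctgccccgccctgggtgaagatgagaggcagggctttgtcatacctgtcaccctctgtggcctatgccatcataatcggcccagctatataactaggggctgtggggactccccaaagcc
Both strands of the 4 windows were searched for the AP-1 motif TGANTCA, the STAT motif TTCNNNGAA and the RUNX motif TGTGGT. The only match was the AP-1 motif in Itgax, 56 bases before the start site. Among 32851 annotated windows of the same length, 6.75% held the AP-1 motif, 7.02% the STAT motif and 14.0% the RUNX motif, so a single match among 4 windows is a description. In the same annotation Esm1 neighbours Gzmk and Gzma, a pair of granzyme genes that come up again below, and Tnp2 lies between Socs1 and the protamine gene Prm3.

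Depth differed between the libraries and between the cells compared. Anxa1 Itgax cells held a median of 4651 UMIs in PBS, 6460 in mix and 10928 in homo, against 5281, 5812 and 7151 in the other CD8 cells without Tcf7, which are the comparison cells throughout. The libraries shared between 100 and 131 barcode sequences per pair, at most 1.55% of the smaller library. T cell receptor transcripts, which the gate did not use, were found widely: a Trbv gene had a UMI in 87.4% of the Anxa1 Itgax cells of PBS, 96.6% of those of mix and 97.3% of those of homo. Ncr1, a defining gene of NK cells, was at 0 in the Anxa1 Itgax cells of every library.

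The cells were scarce, and their order across libraries turned with depth. They made up 3.32% of the CD8 cells of PBS, with an interval of 2.93% to 3.75%. The share was 1.51% for mix (1.21% to 1.85%) and 4.26% for homo (3.80% to 4.77%). Every barcode was then thinned at random to 2000 UMIs, leaving out 357 shallower CD8 cells of PBS, 324 of mix and 405 of homo. At that equal depth 101 cells met the gate in PBS, or 1.38% of CD8 cells (1.12% to 1.67%), against 17 for mix, or 0.305% (0.178% to 0.487%), and 35 for homo, or 0.531% (0.370% to 0.737%). Homo thus stood highest in the full counts and PBS highest at equal depth, while mix was lowest in both.

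**Figure D1:**
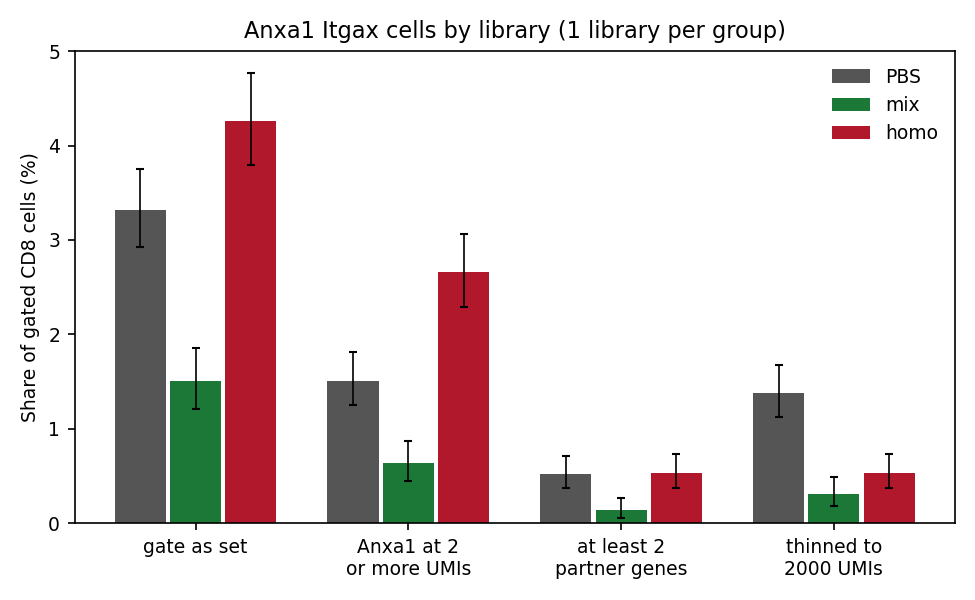
Share of CD8 cells that met the gate in each library (vertical axis, percent) for the gate as set, for 2 stricter gates and for counts thinned to 2000 UMIs; bars are single libraries and error bars are Clopper-Pearson 95% intervals. Homo was highest at 4.26% with the gate as set, and PBS was highest at 1.38% after thinning.

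A gate on single UMIs leaves many cells at its edge. In 93 of 253 cells in PBS, 43 of 88 in mix and 84 of 295 in homo, Anxa1 and the partner genes were each met by exactly 1 UMI. Just outside the gate, 1044 cells of PBS, 562 of mix and 1248 of homo held Anxa1 with no partner, and 567, 443 and 484 held a partner with no Anxa1. A further 24, 6 and 33 cells were left out for a Tcf7 transcript alone. Itgax was the partner in 126, 46 and 126 cells, Tnp2 in 118, 42 and 122, and Esm1 in 52, 8 and 85, and 40, 8 and 37 cells held at least 2 partners.

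The gate genes did not all keep company with Anxa1 to the same degree. Among CD8 cells without Tcf7, Itgax was found in 9.71% of cells with Anxa1 and 3.63% of cells without it in PBS, in 7.08% and 3.12% in mix, and in 8.17% and 3.77% in homo. Esm1 was found in 4.01% and 0.979% in PBS, 1.23% and 0.403% in mix, and 5.51% and 1.77% in homo. For Tnp2 the corresponding shares were 9.10% and 6.40%, 6.46% and 6.75%, and 7.91% and 6.23%. In the full counts Itgax and Esm1 were thus found more often beside Anxa1 in every library, and Tnp2 was not in mix. Deeper cells hold more of every gene. At 2000 UMIs, Tnp2 was in 7.18% of cells with Anxa1 and 2.98% without it in PBS, 2.08% and 2.73% in mix, and 1.62% and 2.02% in homo, so that it was more frequent beside Anxa1 only in PBS. Itgax at that depth was in 7.02% and 1.86% in PBS, 3.82% and 1.34% in mix, and 2.76% and 1.31% in homo. Its intervals in homo overlapped narrowly, at 1.62% to 4.38% and 1.03% to 1.65%. Esm1 was then in 2.90% and 0.689% in PBS, 0.347% and 0.224% in mix, where 1 cell held both, and 1.30% and 0.618% in homo, with overlapping intervals in mix and homo.

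Tnp2 was also found where Anxa1 was scarce. Naive-like CD8 cells were taken as CD8 cells with Tcf7, with Ccr7 or Lef1, and without Pdcd1, a definition chosen after seeing the data, at a median of 4954 UMIs in PBS, 4664 in mix and 5587 in homo. Tnp2 had a UMI in 9.33% of them in PBS, 6.90% in mix and 3.59% in homo, against 6.91%, 6.71% and 6.66% of CD8 cells without Tcf7. Anxa1 was in 2.04%, 0.862% and 3.19% of these naive-like cells against 19.0%, 12.7% and 25.7%. Esm1 was in 0.292% of them in PBS, 0 of 348 cells in mix, which allows a share of up to 0.862%, and 0.398% in homo, against 1.56%, 0.509% and 2.73%, and Itgax was in 2.33%, 1.72% and 4.38% against 4.78%, 3.62% and 4.90%. For counts thinned to 2000 UMIs, both sets stayed as chosen on the full counts. Tnp2 was then in 2.42%, 1.19% and 0.803% of naive-like cells and in 3.32%, 2.71% and 1.88% of CD8 cells without Tcf7. The intervals overlapped in each library. Over all CD8 cells without Tcf7, the share with Tnp2 thus lay within the interval of the naive-like cells in the full counts in all 3 libraries. In homo it lay near the upper end of that interval, 1.65% to 6.70%. Among the cells without Tcf7 in PBS, however, Tnp2 was more frequent beside Anxa1 at equal depth. Anxa1 was more frequent than in naive-like cells in all 3 libraries. The share with Itgax in homo was likewise at that of naive-like cells, also at 2000 UMIs, where it was 1.48% against 1.61%. At that depth it was 2.42% against 0.909% in PBS and 1.60% against 0.896% in mix, with overlapping intervals. Regulatory T cells, taken as barcodes with Foxp3 and Cd4 and no CD8 transcript, had a lower median depth of 3770 UMIs in PBS and 4009 in mix, and Tnp2 was in 3.39% and 3.95% of them. Of the other genes of sperm packing, Prm2, Prm3 and Tnp1 were at 0 in the Anxa1 Itgax cells of all 3 libraries, and Prm1 was at 0 in PBS and mix and had 1 UMI in homo. Socs1, its neighbour, stood at log2 ratios of 0.20, 0.10 and 0.05 in PBS, mix and homo against the comparison cells.

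The Anxa1 Itgax cells held more transcripts of Gzma, Ccr2, Itgb7 and Cxcr3, and fewer of Tox and Lag3, than the other CD8 cells without Tcf7. The UMIs of each set of cells were added up and given as CPM, the UMIs of a gene among 1000000 UMIs of the set, and 2706 genes with at least 50 CPM in either set in every library were compared. In all 3 libraries 4 genes were at least 2-fold higher, or 0.148% of those compared, and 1 was at least 2-fold lower, or 0.037%. The 4 were Gzma, Ccr2, Itgb7 and the unnamed gene model 1500009L16Rik, and the lower one was the gene model Gm156; both gene models lie outside the rule for named genes and were chosen after their values were seen. These and the other values against the comparison cells describe cells chosen from the same counts.

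Gzma encodes granzyme A, a trypsin-like protease of cytotoxic granules. It stood at 919 CPM in the Anxa1 Itgax cells of PBS, 1082 in mix and 4048 in homo, against 327, 166 and 1090 CPM in the comparison cells. The log2 ratio was 1.49 for PBS (1.41 to 1.57), 2.70 for mix (2.60 to 2.81) and 1.89 for homo (1.87 to 1.92). In mix, 456 of the 801 UMIs came from 1 cell, so the level there rests largely on that cell. By cells, Gzma was found in 52.2%, 30.7% and 62.0% of Anxa1 Itgax cells and in 13.7%, 8.68% and 24.6% of the comparison cells. Gzmk, which encodes granzyme K of memory-like T cells, was higher by log2 ratios of 0.68, 0.75 and 1.26.

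Among genes for entry into tissue and movement through blood, a few stood higher and most did not in all 3 libraries. Of 10 effector and memory genes compared, Ccr2 and Cxcr3 had intervals above 0 in every library and none below, and of 8 integrin genes Itgb1 and Itgb7 did and none below. Over all genes compared these shares were 3.33% above and 2.73% below. Itgb1 had log2 ratios of 1.36 in PBS, 0.71 in mix and 0.12 in homo (0.02 to 0.22). Without cells that held a V gene of the leading T cell receptor pair described below, its interval in homo was -0.06 to 0.17. Ccr2, the receptor for the chemokine CCL2, was at 143 CPM in PBS, 58.1 in mix and 100 in homo against 28.2, 18.7 and 44.8, with log2 ratios of 2.34, 1.63 and 1.17. Itgb7, whose integrin chain pairs with alpha 4 for homing to gut and with alpha E for holding to epithelium, was at 265, 113 and 149 CPM against 63.8, 36.9 and 73.5, with ratios of 2.05, 1.62 and 1.02. Itga4, which encodes alpha 4, stood at -1.13, -0.24 and -0.10. Ccr2 and Itgb7 were higher in every library, with the smallest ratio in homo. Klf2 followed at 365, 262 and 83.3 CPM against 193, 142 and 48.1, and Cxcr3, the receptor for interferon-induced chemokines, had ratios of 1.49, 0.98 and 0.69. S1pr1, under the limit of 50 CPM in some sets, was found in 19.4%, 10.2% and 19.7% of Anxa1 Itgax cells against 3.69%, 2.37% and 5.17%. Thinned to 2000 UMIs, with both sets kept as gated on the full counts, these shares were 12.6%, 3.45% and 5.46% against 2.05%, 1.10% and 1.86%. The chain that holds T cells to epithelium, Itgae, was in 13% of Anxa1 Itgax cells in PBS against 2.59%, and in 4.55% and 3.39% in mix and homo against 1.75% and 1.23%. At 2000 UMIs Itgae was in 7.32% against 1.25% in PBS, 1.15% against 0.928% in mix and 0.341% against 0.525% in homo. The excess at that depth was thus clear of the intervals only in PBS. Lgals3, which encodes galectin-3, Crip1 and Tagln2, which encodes an actin-binding protein, were also higher, with ratios between 0.36 and 0.94 in the 3 libraries.

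On the lower side stood Tox, at 54.3 CPM in PBS, 74.3 in mix and 146 in homo against 154, 194 and 214, with log2 ratios of -1.50 (-1.83 to -1.19), -1.39 (-1.80 to -1.0) and -0.55 (-0.67 to -0.42). Lag3, the receptor named in the series title, was at 510, 519 and 408 CPM against 668, 655 and 560, with ratios of -0.39, -0.34 and -0.46. Tox was thus nearest to the comparison cells in homo, and the ratios of Lag3 lay close together. Gzmf, a granzyme of the Gzmc to Gzmg cluster whose near-identical members may share reads, was at 1843, 2314 and 1787 CPM against 4411, 3217 and 3187. Irf8 and Ikzf2, which encode transcription factors found in exhausted T cells, had ratios from -0.90 to -0.32, and Fcer1g, a signalling chain shared with innate cells, from -1.18 to -0.43. Pdcd1, in 57.3% of Anxa1 Itgax cells in PBS and 80.2% of the comparison cells, was in 80.7% and 83.7% in mix and in 90.8% and 90.5% in homo. Havcr2, which encodes the inhibitory receptor TIM-3, had ratios of -0.12, 0.22 and 0.06, and Itgb2, the chain that CD11c pairs with, 0.06, 0.02 and -0.03.

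**Figure D2:**
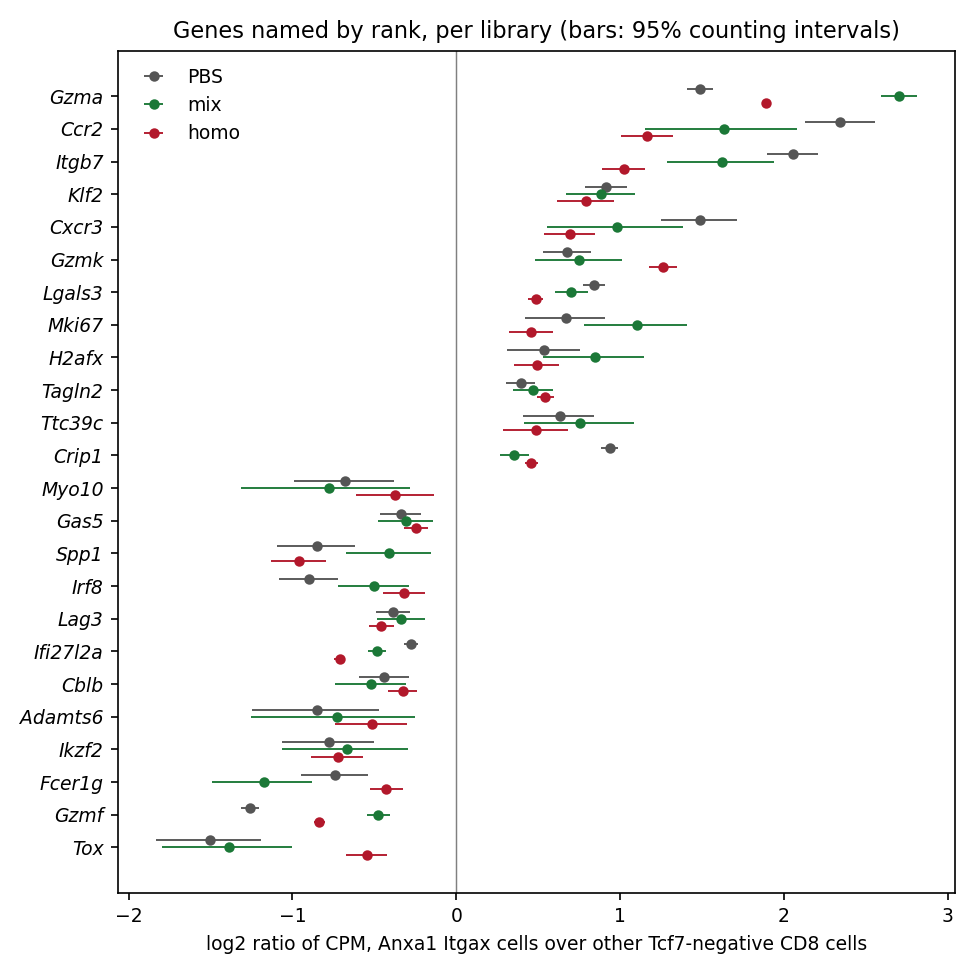
Log2 ratio of CPM between Anxa1 Itgax cells and the other CD8 cells without Tcf7 (horizontal axis) for the 12 highest and 12 lowest genes by the naming rule (vertical axis); each point is 1 library and its bar is the 95% counting interval. Gzma, Ccr2 and Itgb7 lie above 1 in every library, and Tox lies at -1.50 in PBS and -0.55 in homo.

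The gene lists were read against the share of all genes that differed. At least 1.5-fold higher were 2.62% of the 2706 genes for PBS, 1.22% for mix and 0.702% for homo, and 1.03%, 0.85% and 0.407% were at least 1.5-fold lower. Intervals lay above 0 in all 3 libraries for 90 genes, or 3.33%, and below 0 in all 3 for 74, or 2.73%. Of 15 proliferation genes compared, 10 had intervals above 0 in all 3 libraries and none below, among them Mki67, Top2a, Rrm2 and Stmn1, and the list median was 0.30 in PBS, 0.40 in mix and 0.46 in homo against 0.04, 0.01 and 0.01 over all genes. Mki67, a marker of dividing cells, was at 98.2, 120 and 133 CPM against 61.8, 56.1 and 97.2. The Anxa1 Itgax cells were deeper than the comparison cells in mix and homo but not in PBS, and the part of depth in these ratios was not tested. With comparison cells weighted to the same depth, the median log2 ratio of Mki67 over the libraries was 0.42 in place of 0.67, and with thinned counts 0.33. That of Ube2c, another of the 10, was 0.49 and turned to -0.77 with thinned counts.

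The list of annexin, S100 and galectin genes also held Vim, which encodes vimentin, and was read without Anxa1. Of its 14 genes compared, 6 had intervals above 0 in all 3 libraries (S100a4, S100a6, S100a10, Lgals1, Lgals3 and Vim) and none below. None of the annexins was among them: Anxa2, the partner of S100A10, had ratios of -0.21, 0.15 and 0.22. Of 12 genes on the inhibitory and exhaustion list, 4 had intervals below 0 in all 3 (Tox, Lag3, Pdcd1 and Nr4a2) and none above, and the median was -0.31, -0.16 and -0.14. The interval of Lag3 in PBS reached past 0, at -0.18 to 0.05, without the cells that held a V gene of the leading T cell receptor pair described below. Among 16 cytotoxic genes, Gzma, Gzmb and Gzmk had intervals above 0 in every library, and Gzmf and Cst7, an inhibitor of granule proteases, below. Perforin (Prf1) stood at -0.54, -0.06 and -0.12. Of 12 genes in the IL-2 and STAT5 list, Cish and Gzmb were above and Il2rb and Bcl2 below in all 3, with Il2ra at 0.24, 0.32 and 0.60. Residency, glycolysis, respiratory chain and metal-response genes had none on either side in all 3 libraries.

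Interferon genes stood higher mainly in PBS, where 8 of 21 were at least 1.5-fold higher in the Anxa1 Itgax cells and none lower, with Gbp2 at 1.22 and Ifit1 at 0.94. In mix none was past 1.5-fold, and in homo only Ifi27l2a was, at -0.71. The list medians were 0.49, 0.03 and -0.03. Whether the libraries differ in this was not tested.

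Levels of Gzma and Itgb7 followed the partner genes more than Anxa1, and those of Tox did not. The comparison cells were split into those with Anxa1 only, those with a partner only and those with neither. Gzma stood at 231 CPM in cells with neither, 553 with Anxa1 only, 709 with a partner only and 919 with both in PBS. In mix the order was 118, 267, 421 and 1082, and in homo 655, 1309, 3144 and 4048. Itgb7 was at 49.5, 80.0, 159 and 265 CPM in PBS, 30.3, 40.8, 86.4 and 113 in mix, and 58.1, 77.9, 155 and 149 in homo. For both genes the cells with a partner only lay closer to the Anxa1 Itgax cells than the cells with Anxa1 only did. Cxcr3 was no higher with Anxa1 only than with neither in PBS, at 36.7 and 36.3 CPM, and stood at 93.3 with a partner only. Klf2 behaved likewise in PBS, at 186 CPM with Anxa1 only, 186 with neither and 274 with a partner only.

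Gzmf ran the other way. It was highest with Anxa1 only, at 6290 CPM for PBS, 5944 for mix and 3916 for homo, and lowest with a partner only, at 1131, 966 and 1679. The Anxa1 Itgax cells lay between, so against cells with a partner only they held more Gzmf in all 3 libraries, with log2 ratios of 0.70, 1.26 and 0.09. Tox was lowest in the cells with both in every library, at 54.3 CPM in PBS against 92.1 with Anxa1 only, 110 with a partner only and 174 with neither, although in homo the 146 CPM with both lay close to the 157 with Anxa1 only.

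**Figure D3:**
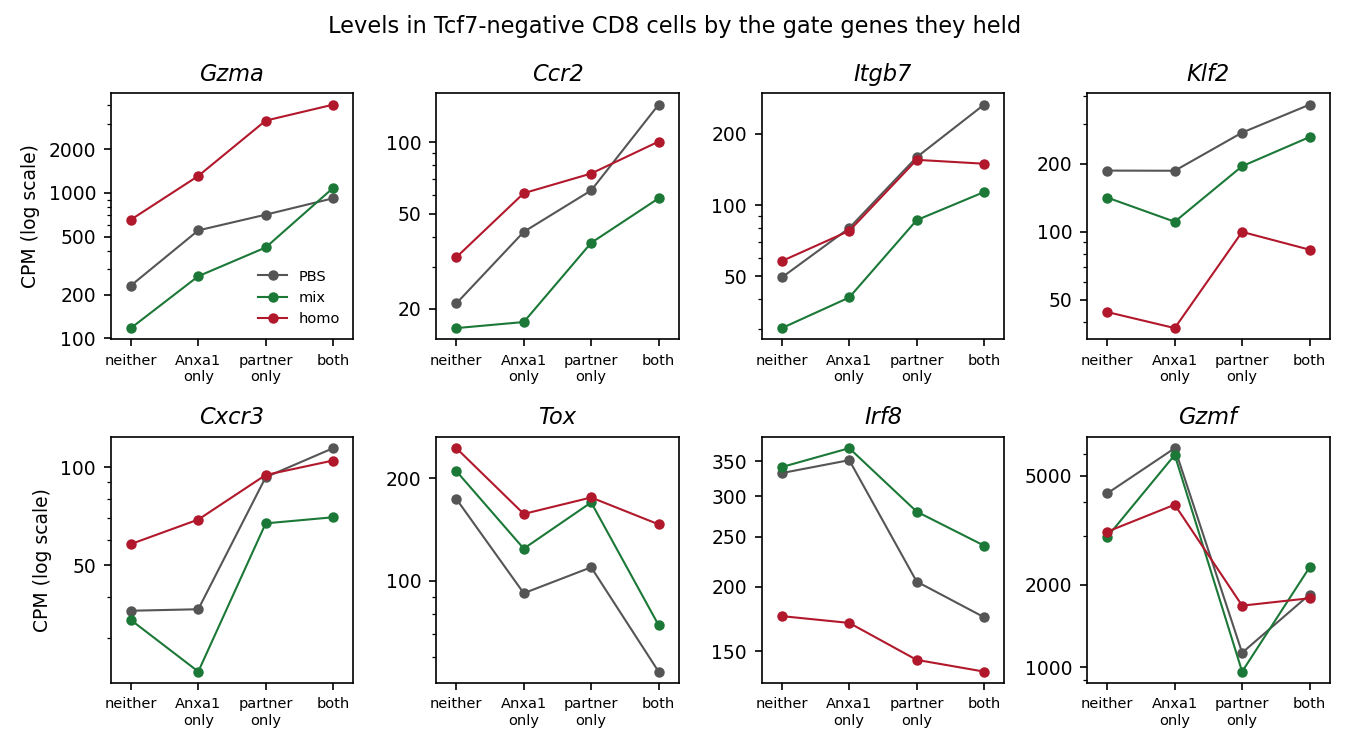
CPM (vertical axes, log scale) of 8 genes in CD8 cells without Tcf7 that held neither Anxa1 nor a partner gene, Anxa1 only, a partner only or both; lines join the values of 1 library. Gzma, Ccr2 and Itgb7 stand higher with a partner only than with Anxa1 only in every library, and Gzmf is highest with Anxa1 only.

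Which partner a cell held made a difference. Cells with Itgax as the sole partner had Gzma log2 ratios against the comparison cells of 1.62 for PBS, 2.07 for mix and 2.02 for homo, and cells with Tnp2 as the sole partner 0.72, 0.30 and 1.01. For Ccr2 these were 2.71, 1.85 and 1.34 with Itgax, and 1.32, 1.05 and 0.19 with Tnp2. Tox followed the same order, at -2.51, -2.26 and -0.72 with Itgax and -0.74, -0.82 and -0.29 with Tnp2. The cells brought in by Tnp2 alone, 91 in PBS, 35 in mix and 104 in homo, thus lay nearer to the comparison cells in these genes. Esm1 as the sole partner, in 29, 7 and 60 cells, went with Gzma ratios of 1.06, 2.79 and 2.50 and with Gzmk ratios of 1.16, 1.29 and 2.01; both granzyme genes are its neighbours on chromosome 13. Esm1 and Itgax were found together in 23, 4 and 45 CD8 cells without Tcf7, and Itgax was in 21.7%, 15.4% and 27.4% of cells with Esm1 against 4.52%, 3.56% and 4.26% of cells without it.

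T cell receptor V genes, which the gate did not use, were shared by some of the Anxa1 Itgax cells in each library. The Trbv and Trav genes found together in most Anxa1 Itgax cells were taken as the library's leading pair, a choice made from these counts. In PBS the pair was Trbv31 with Trav21-dv12, in 69 of 253 Anxa1 Itgax cells, or 27.3% (21.9% to 33.2%), and 2.64% of the comparison cells (2.26% to 3.05%). In mix Trbv13-3 with Trav7-5 was in 8 of 88, or 9.09% (4.01% to 17.1%), against 0.299%. In homo Trbv19 with Trav3-3 was in 28 of 295, or 9.49% (6.40% to 13.4%), against 1.33%. Each pair was chosen as the commonest inside the gate, so its excess there is in part set by the choice. Read the other way, 28.5% of the 242 cells with the PBS pair met the gate, 34.8% of the 23 with the mix pair and 26.9% of the 104 with the homo pair.

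A second Trav gene beside the leading Trbv gene was among the commonest pairs in PBS and homo. Trav12-1 had a UMI in 27 of the 69 PBS cells and in 108 of all 242 cells with the pair, and Trav6-1 in 24 of the 28 homo cells and 84 of all 104. The leading Trav gene was also found with other Trbv genes in each library. These were Trbv19 in 16 Anxa1 Itgax cells of PBS and Trbv16 in 15 of homo. In mix they were Trbv13-2 in 5, Trbv12-2 in 4 and Trbv20 in 4. The PBS pair was found in none of 5111 CD8 cells without Tcf7 in mix, which allows a share of up to 0.0587%, and in 6 of 6003 in homo. V genes do not identify a clone, since the joining sequences were not read, and near-identical V genes may share reads. In PBS, 52.9% of cells with the pair held Anxa1 and 50% a partner gene, at a median of 3653 UMIs, against 19.0% and 12% of all CD8 cells without Tcf7.

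**Figure D4:**
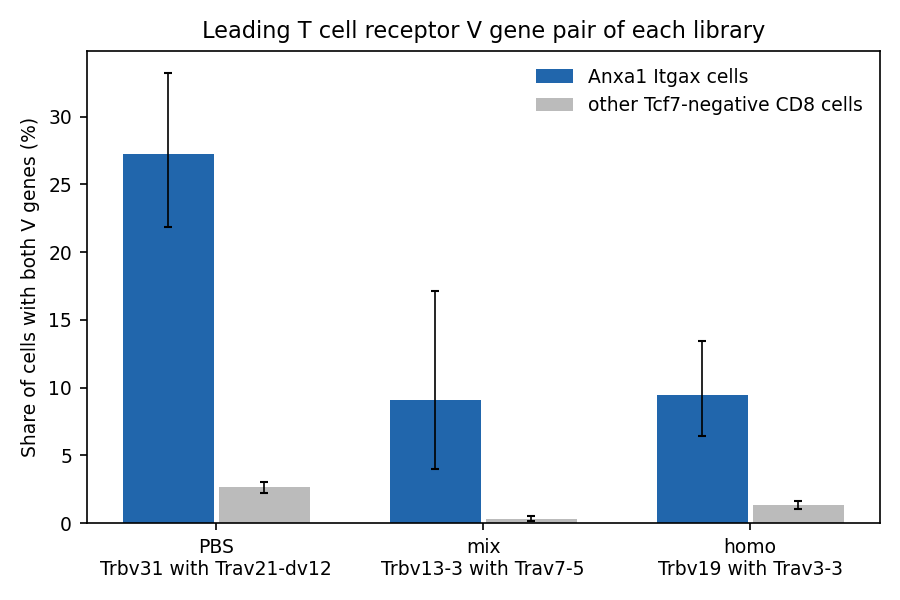
Share of cells with UMIs of both V genes of each library's leading pair (vertical axis, percent) in Anxa1 Itgax cells and in the other CD8 cells without Tcf7; bars are single libraries and error bars are Clopper-Pearson 95% intervals. The share was 27.3% against 2.64% in PBS, 9.09% against 0.299% in mix and 9.49% against 1.33% in homo.

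Cells with the PBS pair carried the pattern whether or not they met the gate. Those in the gate held Gzma at 2068 CPM, Itgb7 at 611 and Ccr2 at 323, and those outside it 1543, 511 and 238. Their Tox levels were 18.8 and 33.8 CPM against 154 in the comparison cells as a whole, and their Lag3 levels 210 and 124 against 668. S1pr1 was at 175 and 122 CPM, against 8.39 CPM. Cells with the homo pair held Gzma at 1707 CPM in the gate and 2320 outside it, and Itgb7 at 118 and 197. Anxa1 Itgax cells of homo with neither V gene held Gzma at 3999 CPM and Itgb7 at 147. In mix, the 8 Anxa1 Itgax cells with its pair held 547 of the 801 Gzma UMIs. With every barcode left out that held either V gene of the leading pair, a setting chosen after seeing the data, the PBS ratio of Gzma was 0.52 in place of 1.49 and that of Lag3 was -0.06 (-0.18 to 0.05) in place of -0.39. Ccr2 kept a ratio of 2.03, Itgb7 of 1.59 and Tox of -1.27. The same step left Gzma at 1.34 in mix and 1.89 in homo. The count of genes at least 2-fold higher in all 3 libraries was then 2 in place of 4. The share of CD8 cells that met the gate was 2.14% in PBS, 1.33% in mix and 3.76% in homo without these barcodes, and 0.678%, 0.226% and 0.438% at 2000 UMIs.

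Between libraries, the Anxa1 Itgax cells of homo stood apart from those of PBS and mix in many genes in which the other CD8 cells of homo stood apart as well. These comparisons share libraries, so each ratio is given beside the same ratio in the comparison cells. In mix over PBS, 2.26% of 3185 genes were at least 1.5-fold higher and 5.49% lower. In homo over PBS these were 3.98% and 9.81% of 3141 genes, and in homo over mix 4.21% and 8.36% of 3086. The median of all genes was -0.10 in homo over PBS, and median-ratio scaling moved it by 0.102.

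Homo had more Gzma and metallothionein transcripts and fewer of immediate early, interferon and STAT5 target genes. Gzma was 2.14 higher on the log2 scale in homo than in PBS, and 1.74 higher in the comparison cells. The metallothionein genes Mt1, at 406 CPM against 132, and Mt2, at 69.6 against 16.4, had ratios of 1.63 and 2.09, against 0.78 and 1.46 in the comparison cells. Ltb4r1, the receptor for leukotriene B4, was at 61.3 CPM in homo and 9.82 in PBS, and the comparison cells had a similar ratio of 2.97 beside 2.64. Cd160, an inhibitory receptor, was 2.19 higher in homo than in mix, with 1.14 in the comparison cells, and Gclm, of glutathione synthesis, 1.79 with 1.37. Among 19 genes of the immediate early and heat shock list, 14 were at least 1.5-fold lower in homo than in PBS and none higher, with Dusp1 at -2.55, and 10 of the 19 were lower in the comparison cells. Of 23 interferon genes 20 were lower and none higher in the Anxa1 Itgax cells, and 6 were lower in the comparison cells, with list medians of -0.86 and -0.38. Of 12 genes in the IL-2 and STAT5 list 8 were lower and none higher, with Cish at -1.60 and Gzmb at -1.14, and 7 were lower in the comparison cells. Over all 3141 genes, 9.81% were at least 1.5-fold lower in the Anxa1 Itgax cells, and this share was not taken for the comparison cells. At 2-fold, 85 genes were lower and 35 higher in the Anxa1 Itgax cells, and 54 and 26 in the comparison cells, which hold more UMIs. Whether the Anxa1 Itgax cells and the comparison cells differ in these counts was not tested.

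In mix against PBS, Zc3h7a, a zinc finger gene, was at 420 CPM against 161, a ratio of 1.38 with 0.78 in the comparison cells. In mix 3 cells held 44.7% of its UMIs, and it was found in 64.8% of Anxa1 Itgax cells and 67.5% of the comparison cells. The chemokine genes Ccl4 and Ccl3 were lower by ratios of -1.43 and -1.77, and Ier3, an immediate early gene, by -2.37, with -0.20, -0.38 and -0.43 in the comparison cells. A few cells carried part of this: in PBS 3 cells held 67.1% of the Ccl3 UMIs, 43.0% of those of Ccl4 and 60.7% of those of Ier3.

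Several genes named by the ranking rest on single barcodes. In PBS 63 of 86 Xcl1 UMIs and 118 of 119 Cxcl2 UMIs came from 1 cell each. The antigen-presenting genes Cd74, H2-Aa, H2-Ab1 and H2-Eb1, which are not genes of resting mouse T cells, owed 192 of 274, 69 of 77, 83 of 101 and 78 of 95 UMIs in PBS to 1 cell, and 273 of 278, 96 of 97, all 98 and all 74 in mix. Cst3 in mix owed 209 of 382 UMIs to 1 cell. Serpinb9b, an inhibitor of granzymes, was found in 10 of the 88 cells of mix, with 3 of them holding 63.4% of its UMIs, and in 22 of 253 in PBS. Xcl1 in homo was spread over 40 cells, of which 3 held 52.2% of its UMIs.

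Markers of other cell types were given the same measure. The 14 macrophage genes together were at 125 CPM in Anxa1 Itgax cells and 30.0 in the comparison cells in PBS, 28.4 and 16.3 in mix, and 41.0 and 23.1 in homo, with 1, 8 and 5 of the genes at 0. A UMI of the macrophage genes was in 8.70%, 12.5% and 27.5% of Anxa1 Itgax cells against 8.20%, 7.47% and 15.0%. The 14 dendritic cell genes were at 628 and 307 CPM in PBS, 1283 and 290 in mix, and 302 and 342 in homo, with Cd209a, Fscn1 and Siglech at 0 in all 3. A UMI of the dendritic cell genes was in 65.6%, 69.3% and 85.8% against 67.6%, 69.5% and 76.2%. The 12 NK and innate genes were at 187 and 274 CPM in PBS, 161 and 329 in mix, and 286 and 352 in homo. A UMI of them was in 22.9%, 33.0% and 57.3% of Anxa1 Itgax cells against 27.9%, 30.2% and 42.1%. The 10 gamma delta T cell genes were at 76.6 and 95.4, 149 and 125, and 226 and 208 CPM. A UMI of those was in 18.2%, 28.4% and 66.4% against 17.1%, 24.2% and 49.9%. Barcodes with at least 3 UMIs of myeloid markers made up 10 of the 253 cells in PBS, 1 of 88 in mix and 3 of 295 in homo. High doublet scores were found in 8.70%, 2.27% and 10.5% of Anxa1 Itgax cells and in 6.22%, 3.82% and 4.98% of the comparison cells. Without the myeloid-marker barcodes the median log2 ratio over the libraries was 1.90 for Gzma, 1.65 for Ccr2, 1.64 for Itgb7 and -1.35 for Tox, against 1.89, 1.63, 1.62 and -1.39 with them.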

How the data were processed

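Raw UMI counts per gene and barcode, deposited by the authors for 3 libraries and 32285 genes, were used as they stand. Per the file headers Cell Ranger 7.1.0 produced them; the submitters' processing notes list mm39, Seurat 4.1.0 and an earlier Cell Ranger, 2.1.1. The libraries held 56427870 UMIs in PBS, 49179708 in mix and 65336646 in homo. The quality limits were 500 genes, 1000 UMIs and 10% mitochondrial UMIs.

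UMIs were summed per cell set and scaled to CPM. Ratios carry exact conditional binomial 95% intervals and shares exact Clopper-Pearson intervals, and the limit for a count of 0 is 3 counts. Doublets stayed in; an alternative left out the highest Scrublet scores (scanpy 1.11.5), 0.8% for every 1000 barcodes. The ratio script was tested on simulated data. The software was pandas 2.3.3, scipy 1.17.1 and numpy 2.4.6 under Python 3.11.15.

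Named were the 12 highest and 12 lowest genes by the interval end nearest 0 in the library where it is nearest, 5 each way between libraries, a fixed set of immune genes, and up to 4 genes per list with intervals on the same side of 0 in all 3 libraries. Not ranked were the gate genes, ribosomal protein genes, T cell receptor and immunoglobulin genes, sex-linked genes, and genes of mitochondria or haemoglobin. The gate, the 18 lists and the rules were chosen with earlier results of these data known. One planned set of naive-like cells is not reported here.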

Additional observations from a re-analysis of the deposited data

Results flagged for a closer look

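Some named genes lay on opposite sides in the Anxa1 Itgax cells and in the other CD8 cells without Tcf7 when the same pair of libraries was compared. With 1 library per group these differences between the sets of cells were not tested.

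In mix over PBS, the log2 ratio in Anxa1 Itgax cells was 1.36 for Serpinb9b, 1.23 for Cst3, 1.07 for Cd74, 0.24 for Gzma, 0.33 for Gzmf and -0.53 for Crip1. In the comparison cells the same ratios were -0.88, -0.07, -0.29, -0.98, -0.46 and 0.05. Of the UMIs in the Anxa1 Itgax cells of mix, 1 cell held 273 of 278 for Cd74, 209 of 382 for Cst3, 456 of 801 for Gzma and 417 of 1713 for Gzmf.

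In homo over PBS, the ratio was 1.60 for Xcl1, -0.51 for Ccr2, -0.83 for Itgb7 and 0.42 for Gzmk in Anxa1 Itgax cells, and -0.12, 0.67, 0.20 and -0.16 in the comparison cells. Ccr2 and Itgb7 were thus lower in the Anxa1 Itgax cells of homo than in those of PBS, and higher in the other CD8 cells of homo. In PBS the cells with the leading V pair held Ccr2 at 323 CPM and Itgb7 at 611 CPM inside the gate, and cells with neither of its V genes 88.3 and 155; the part of these cells in the difference was not tested.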

How the results depend on the processing

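No paired analysis was possible because each group was a single library. As a share of CD8 cells, the gate gave 1.38% in PBS, 0.305% in mix and 0.531% in homo on counts thinned to 2000 UMIs, 1.51%, 0.634% and 2.66% with Anxa1 at 2 or more UMIs, 0.525%, 0.137% and 0.535% with at least 2 partner genes, 1.65%, 0.788% and 1.82% with Itgax alone as partner, and 2.1%, 0.856% and 2.90% with Esm1 or Tnp2. Of CD8 cells without Tcf7 the share in homo was 4.91%. Without barcodes holding a V gene of the leading pair, chosen after seeing the data, it was 2.14% in PBS and 3.76% in homo, and on thinned counts 0.678%, 0.226% and 0.438% in PBS, mix and homo.

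Against the comparison cells, 4 genes were at least 2-fold higher and 1 lower in all 3 libraries. The higher count was 2 with a filter of 100 CPM, 2 without the V genes of the leading pair, 8 on thinned counts, 1 against cells with Anxa1 and no partner and 0 against cells with a partner and no Anxa1. The lower count was 8 on thinned counts, 0 with comparison cells weighted by depth, 0 against cells with Pdcd1 and Havcr2, 3 against cells with Anxa1 and no partner and 0 against cells with a partner and no Anxa1. Leaving out 1 library at a time gave 4 to 9 higher and 1 to 3 lower, with 9 and 3 without homo. Among median log2 ratios over the libraries, Ube2c was -0.77 on thinned counts, to which the gate was applied anew. Against cells with Anxa1 only, Gzmb was -0.032 and Bcl2 0.10. Against cells with a partner only, Gzmf was 0.70, Spp1 1.34, Myo10 0.057, Il2rb 0.014, Rsad2 -0.14, Isg15 -0.33 and Ccl5 -0.23, each of them on the other side of 0 against all comparison cells.

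Between libraries, genes at least 2-fold higher and lower numbered 19 and 36 in mix over PBS, 35 and 85 in homo over PBS, and 34 and 59 in homo over mix. With a filter of 20 CPM they were 77 and 131, 71 and 169, and 103 and 162, and with 100 CPM 12 and 14, 23 and 53, and 15 and 37. On thinned counts, which left 17 cells in mix, they were 750 and 773, 476 and 637, and 736 and 1280. With the mean of per-cell CPM 57 were lower in mix over PBS and 54 higher in homo over PBS. Ratios in mix over PBS turned over for Cst3, at -1.92, and Ccl3, at 0.70, on thinned counts, and for Cxcl2, at 0.99, without myeloid-marker barcodes. The cause of these shifts was not tested. Of 582 alternatives for named genes, 405 were counted as unmoved, 164 moved without turning and 13 turned the direction of the ratio. Against the comparison cells, unmoved meant a median between the lowest and highest main ratio of the 3 libraries. That range can be wider than a counting interval.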
